A study of Citrullus lanatus with 12 samples.

Results

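Of 23440 genes measured in watermelon anthers, 275 reached a set level and rose by at least 2 (log2) from tetrad to every later stage. Of these, 42 were held, with 3 later stage means within 1.5 of each other on the log2 scale. Their dikaryophase mean did not peak by 0.6 or more. The 42 genes were chosen by the deposited values, which are log2(normalised reads + 1), averaged over the 3 libraries of a stage. A member had a highest later stage mean of at least 8 (255 normalised reads), a rise of at least 2 from the tetrad mean to the lowest later stage mean, a range of the 3 later stage means under 1.5, and a dikaryophase mean less than 0.6 above the higher of the mononuclear and mature means. The conditions use or limit every stage difference of the 42 genes, so these differences describe the choice. Where counts of test calls are given, they are no support for it. The number rests on the scaling: scaled by library size alone, the values gave 27 genes by the same conditions, 26 of them among the 42.

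RNA was sequenced from anthers of Citrullus lanatus, from progeny of the variety Xinteda Zhengkang 9 grown in a greenhouse. Per the labels, part of each anther was examined under the microscope for its stage, and RNA came from the rest. The 12 libraries were 3 each of the tetrad, mononuclear, dikaryophase and mature stages. The labels do not say whether the 3 libraries of a stage came from different plants, so their spread may be partly technical.

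In the tetrad the products of meiosis are still enclosed together. After their release the free microspores have a single nucleus, then divide unequally into a vegetative and a generative cell, and mature into pollen, while the tapetum, the nurse tissue that lines the anther locule, supplies the pollen wall and breaks down. A whole anther holds all of these cells and the anther wall, so a change in the number of cells of a type and a change in the RNA per cell cannot be told apart here. No name or product is paired with an ID in the files, so the 42 genes are given by ID, their roles are not described, and the anthers were not checked against marker genes.

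The libraries held 55347640 to 65554998 reads assigned to genes, the fewest in mature replicate 3, then mononuclear replicate 2 (58079967), and the most in mononuclear replicate 3. Of all genes, 17484 reached 1 CPM (reads scaled by the library total) in at least 3 libraries and were tested, and all 42 members were among them. The conditions require a rise from the tetrad mean to each later mean, so nothing can be read from calls in these contrasts. For the record, limma's moderated test on the deposited values called all 42 higher in each of the 3 later stages than in the tetrad stage, and called 4.97% (mononuclear), 8.04% (dikaryophase) and 10.2% (mature) of the genes tested higher. Calls needed a Benjamini-Hochberg adjusted p under 0.05 and a change of at least 1 on the log2 scale. The 3 contrasts share the tetrad libraries. The lowest of the 9 later libraries lay above the highest of the 3 tetrad libraries for all 42, as it did for 9.04% of the genes tested. For 18 members this gap was at least 2 on the log2 scale, and the share of all genes with such a gap was not worked out.

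**Figure D1:**
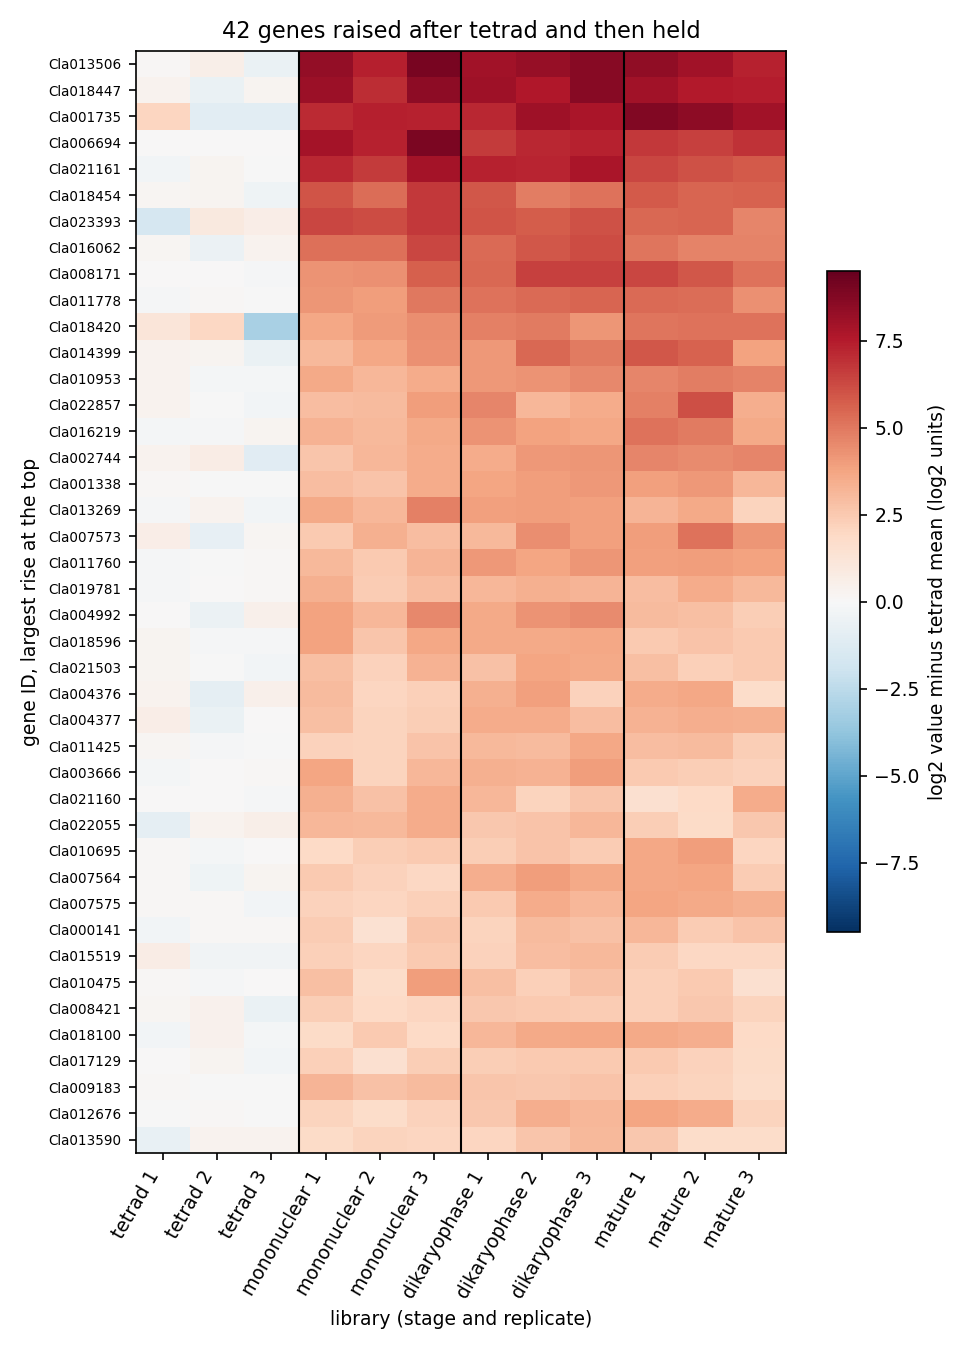
Log2 value of each of the 42 genes (rows, by ID) in each of the 12 libraries (columns), less the gene's tetrad mean, ordered by the rise from the tetrad mean to the lowest later stage mean. The 9 later libraries are above the 3 tetrad libraries in every row, and the rise runs from 7.92 in the top row to 2.01 in the bottom row.

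The rise, taken as the lowest later stage mean less the tetrad mean, had a median of 2.83 on the log2 scale and ran from 2.01 to 7.92. It was 5 or more in 7 genes, from 3 to 5 in 10 and under 3 in 25. Tetrad levels had a median of 164 normalised reads, against 1457 for mononuclear anthers, 2346 for the dikaryophase and 2292 for mature anthers. Over all genes tested the median difference from the tetrad stage was -0.01 for mononuclear anthers, 0.00 for the dikaryophase and -0.01 for mature anthers. For the members these medians were 3.09, 3.72 and 3.32.

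Cla011778, Cla023393 and Cla021161 took most of the reads of the group. Cla011778 held 0.0617%, 0.0680% and 0.0637% of the reads of tetrad replicates 1 to 3, then 1.11%, 0.921% and 1.78% of the mononuclear libraries, 2.27%, 2.75% and 3.07% of the dikaryophase libraries, and 2.51%, 2.49% and 1.39% of the mature ones. Its tetrad libraries were close together, and the lowest later library, mononuclear replicate 2, was far above them. The lowest later stage mean was 21.8 times the tetrad mean in normalised reads. The rise was 4.38 ± 0.32 on the log2 scale (SE, n = 3 each). Each SE is limma's moderated one, from the gene's spread pooled over the 4 stages and drawn towards that of genes of similar level.

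Cla023393 held 0.00913%, 0.0521% and 0.0443% of the tetrad libraries. It took 2.13%, 1.86% and 2.52% of the mononuclear libraries, 1.77%, 1.56% and 1.80% of the dikaryophase libraries and 1.17%, 1.29% and 0.746% of the mature ones. Tetrad replicate 1 was well below the other 2 tetrad libraries, mature replicate 3 was the lowest of the later libraries, and the later stages did not overlap with the tetrad stage. The rise was 5.24 ± 0.54 (log2, SE, n = 3 each), and 4.43 without tetrad replicate 1.

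Cla021161 held 0.00324%, 0.00442% and 0.00373% of the tetrad libraries, 0.503%, 0.346% and 0.781% of the mononuclear, 0.606%, 0.578% and 0.811% of the dikaryophase and 0.297%, 0.246% and 0.231% of the mature libraries. All mature libraries lay below all dikaryophase libraries, at a log2 difference of -1.34 ± 0.28, and all 9 later libraries lay far above the tetrad ones. The rise was 6.09 ± 0.28, or 68.2 times the tetrad mean in normalised reads.

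The summed share of the 42 genes was 0.120% ± 0.0252 of all reads at the tetrad stage, then 4.19% ± 1.07 (mononuclear), 5.37% ± 0.589 (dikaryophase) and 3.70% ± 0.977 (mature) (SD, n = 3 each). The 3 genes above made up 0.103% ± 0.0262, 3.99% ± 0.997, 5.07% ± 0.546 and 3.46% ± 0.943 of reads in the same order of stages. The other 39 took 0.0169% ± 0.00111, 0.209% ± 0.0688, 0.295% ± 0.0496 and 0.238% ± 0.0362. Read shares are not divided by gene length, which the files do not give, so a larger share does not show more transcripts. Mature replicate 3 held 2.57% against 4.25% and 4.27% in mature replicates 1 and 2, and the mature mean was 4.26% without it.

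**Figure D2:**
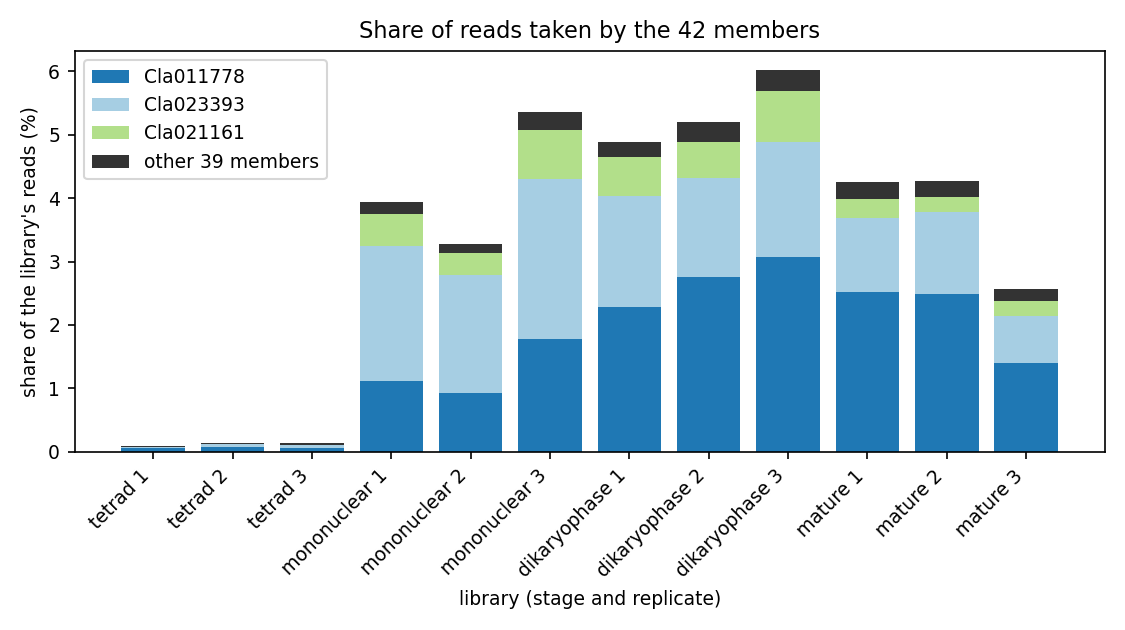
Share of each library's reads (percent, bars from 0) taken by Cla011778, Cla023393, Cla021161 and the other 39 members, by stage and replicate. Later libraries run from 2.57% (mature replicate 3) to 6.03% (dikaryophase replicate 3), nearly all of it in the 3 lead genes, while tetrad libraries stay at or under 0.140%.

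The 4 largest rises were in genes with few tetrad reads. Cla013506 had 18.9, 26.4 and 10.8 normalised reads in the tetrad libraries, 5977, 3059 and 9795 in the mononuclear, 4584, 5742 and 7634 in the dikaryophase and 6491, 4780 and 2954 in the mature libraries. The later stages overlapped one another and none came near the tetrad values. Its lowest later stage mean, at maturity, was 254 times the tetrad mean (rise 7.92 ± 0.43, log2, SE, n = 3 each), and its later stage means lay within 0.38 of each other.

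Cla018447 had 47.2, 24.4 and 45.3 normalised reads in the tetrad libraries. It had 10952, 4898 and 13684 in the mononuclear, 10417, 7343 and 15123 in the dikaryophase and 9663, 7187 and 6704 in the mature libraries. Mononuclear replicate 2 was the lowest later library, and the later stages again overlapped. The rise was 7.66 ± 0.38, with a later range of 0.44.

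Cla006694 was the member with no tetrad read in any of the 3 libraries. It had 237, 154 and 498 normalised reads in the mononuclear, 101, 140 and 156 in the dikaryophase and 103, 87.5 and 119 in the mature libraries. Against a floor of 3 reads over the 3 tetrad libraries, its lowest later level, 1.70 CPM at maturity, was at least 104-fold higher, which covers counting error only. Its highest later stage mean on the log2 scale, 8.05, stood just above the level of 8 that membership needs.

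Cla001735 had 8 tetrad reads, all in replicate 1. Its normalised reads were 280, 340 and 329 in the mononuclear, 290, 531 and 436 in the dikaryophase and 920, 730 and 523 in the mature libraries. The mononuclear libraries were close together and the mature mean stood highest, with mature replicate 3 below dikaryophase replicate 2. The rise was 7.27 ± 0.67, and 8.31 without tetrad replicate 1. Cla018454, with 144, 156 and 96.6 normalised reads in the tetrad libraries, went through 8121, 5199 and 14011 in the mononuclear and 7615, 3703 and 4782 in the dikaryophase libraries to 7606, 6082 and 6485 at maturity. It alone of the 42 had its lowest later stage mean at the dikaryophase, and its rise was 5.29 ± 0.34. Cla016062, next in reads after the 3 lead genes, had 21859 to 69783 normalised reads in the later libraries against 974, 572 and 1077 in the tetrad ones, a rise of 4.85 ± 0.33.

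**Figure D3:**
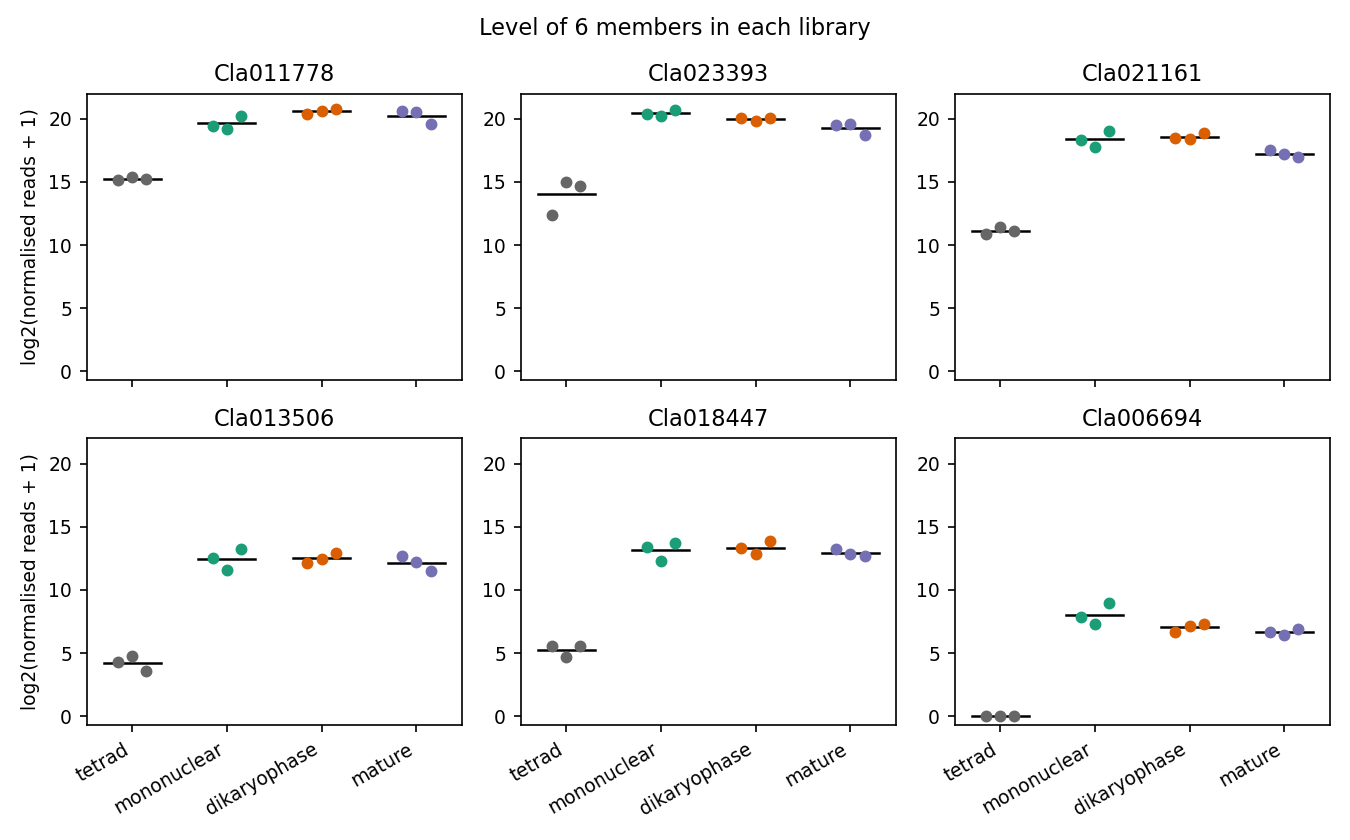
Deposited level, log2(normalised reads + 1), of 6 members in each library (points, replicates 1 to 3 from left to right) with the stage mean (line), on the same vertical axis. Cla011778, Cla023393 and Cla021161 are the highest in reads, Cla013506 and Cla018447 have the largest rises (7.92 and 7.66), and Cla006694 has no read in the tetrad libraries.

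After the rise the 42 genes differed in where their small later maximum fell. The dikaryophase mean was the highest in 22 genes, the mature mean in 13 and the mononuclear mean in 7. The lowest of the 3 later means fell at the mononuclear stage in 25 genes, at maturity in 16 and at the dikaryophase in 1. The most common orders, from high to low, were mature, dikaryophase, mononuclear in 13 genes, dikaryophase, mature, mononuclear in 12 and dikaryophase, mononuclear, mature in 10. The range of the 3 later means had a median of 0.99 on the log2 scale and was under 1 in 21 genes and under 0.5 in 5.

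The flattest member was Cla019781. It had 195, 218 and 234 normalised reads in the tetrad libraries, 2247, 1145 and 1687 in the mononuclear, 1899, 2262 and 2046 in the dikaryophase and 1664, 2428 and 1820 in the mature libraries. All 3 later stages overlapped, and their means on the log2 scale lay within 0.34. Cla017129 and Cla008421, with later ranges of 0.38 and 0.41, were as flat from a smaller rise of 2.05 and 2.07. In Cla017129 the later libraries ran from 486 to 944 normalised reads against 139 to 200 in the tetrad libraries, and in Cla008421 from 649 to 1044 against 112 to 234. Cla013590, also among the 6 flattest at a range of 0.57, had the smallest rise of all, 2.01.

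Some members were called between later stages even within the limit on the range, which bears on these counts, so nothing is read from their share. At the dikaryophase against the mononuclear stage, 3 of the 42 were called higher by limma (3.46% of the genes tested were) and 0 lower (2.89%). At an unadjusted p under 0.05, limma found 11 higher and 2 lower, for which no share over all genes was worked out. Limma-voom on recovered reads called 3 and 0, and 1003 of all genes tested in either direction. Fitted to these 2 stages alone, 4 were called higher (934 of all genes in either direction), and 5 with the replicate number as a block (968). The 3 called higher by limma in the fit to all 12 libraries were Cla011760, Cla007564 and Cla018100. Cla011760 had 584, 620 and 670 normalised reads in the tetrad, 5386, 3447 and 5729 in the mononuclear, 10789, 8342 and 11360 in the dikaryophase and 9133, 9767 and 9020 in the mature libraries. It thus came up in a step to the mononuclear stage and a smaller step of 1.09 ± 0.18 (log2, SE, n = 3 each) to the dikaryophase, with no overlap between those stages.

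At maturity against the dikaryophase, 4 members were called lower by limma (3.01% of the genes tested) and 0 higher (1.93%). At an unadjusted p under 0.05 there were 8 lower and 1 higher, for which no share over all genes was worked out. Nothing is read from these counts without that share. Limma-voom called 4 and 0, and 1032 of all genes tested in either direction. The 4 called lower by limma were Cla021161, Cla004992, Cla018596 and Cla003666. Cla018596 had 74.6, 55.8 and 55.2 normalised reads in the tetrad, 900, 390 and 793 in the mononuclear, 760, 758 and 783 in the dikaryophase and 356, 398 and 355 in the mature libraries. Its mature libraries lay below all dikaryophase libraries, in a range that reached the lowest mononuclear library, and well above the tetrad ones.

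At maturity against the mononuclear stage, 7 members were called higher by limma (7.68% of the genes tested) and 3 lower (7.8%). At an unadjusted p under 0.05 there were 15 higher and 8 lower, for which no share over all genes was worked out. Without that share, nothing is read from these counts. Limma-voom called 8 and 4, and 2650 of all genes tested in either direction. Cla007575, one of those called higher, had 1399, 1438 and 1086 normalised reads in the tetrad, 5984, 5386 and 6302 in the mononuclear, 7321, 14910 and 11506 in the dikaryophase and 17333, 15360 and 13462 in the mature libraries. Its mononuclear and mature libraries did not overlap, at a difference of 1.38 ± 0.22. Cla010953 had 21.7, 14.2 and 14.8 normalised reads in the tetrad and 209, 159 and 198 in the mononuclear libraries, and then 303, 346 and 409 in the dikaryophase and 428, 504 and 467 in the mature libraries. No stage of Cla010953 overlapped the next, although its later range of 1.31 was within the limit. The 3 called lower were Cla021161, Cla004992 and Cla006694, at -1.14 ± 0.28, -1.08 ± 0.37 and -1.35 ± 0.44.

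The level and the rise alone were met by 275 genes, so 233 genes rose likewise but were not held. Of the 233, 222 had a later range of at least 1.5 and 11 a dikaryophase peak of at least 0.6 within that range. The mature mean was the highest in 152 of the 233 genes, the dikaryophase mean in 67 and the mononuclear mean in 14. Their median later range was 3.58, and their summed share of reads was 0.0401% ± 0.00103 at the tetrad stage, then 1.51% ± 0.292 (mononuclear), 3.86% ± 0.722 (dikaryophase) and 5.43% ± 0.839 (mature). The 233 genes had their largest share at maturity and the 42 held genes at the dikaryophase, but the order of the held genes rested on Cla011778. Without it the held genes took 2.92% ± 0.619 (mononuclear), 2.67% ± 0.257 (dikaryophase) and 1.56% ± 0.339 (mature) of reads, with the largest mean at the mononuclear stage. Most of that remainder was Cla023393, at 2.17%, 1.71% and 1.07% in the same order of stages. Cla021161 (0.543%, 0.665% and 0.258%) and the other 39 members (0.209%, 0.295% and 0.238%) had their largest mean at the dikaryophase. The limits on range and peak bear on the difference between the 233 and the 42 genes, which was not tested.

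**Figure D4:**
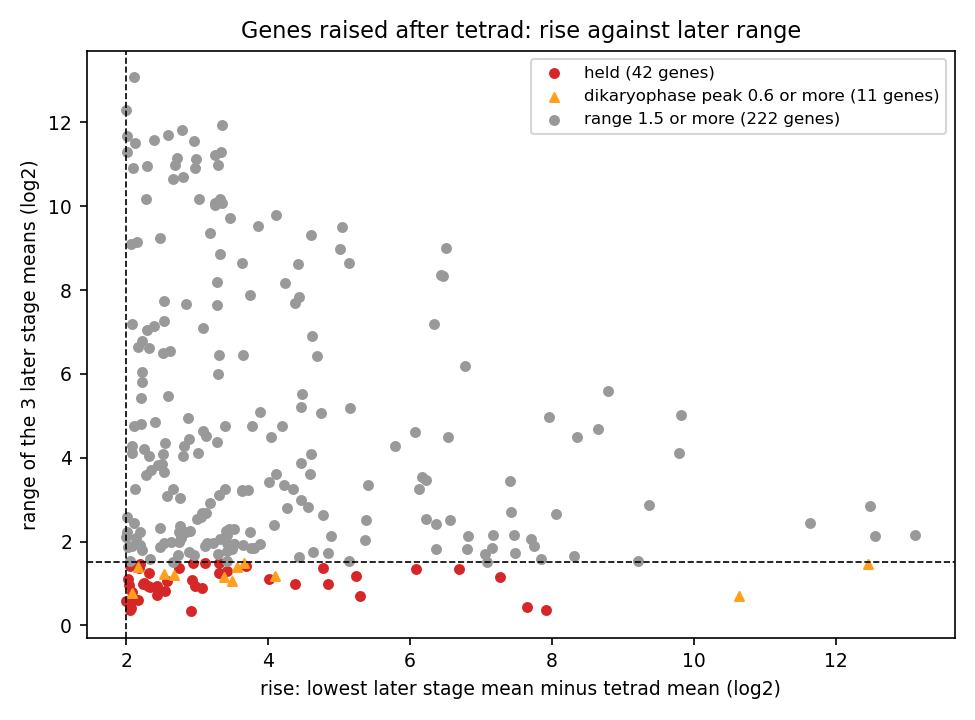
Rise from the tetrad mean to the lowest later stage mean (horizontal, log2) against the range of the 3 later stage means (vertical, log2) for the 275 genes that met the level and the rise. Dashed lines mark the rise of 2 and the range of 1.5; the 42 held genes lie below the range line with rises of 2.01 to 7.92, the 11 triangles were left out for a dikaryophase peak, and the 222 grey genes reach a range of 13.1.

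No gap in the values marked the thresholds. At the rise, Cla013590 (2.01) and Cla012676 (2.02) were just inside, and Cla019526 (1.99) and Cla012281 (1.99) just outside. At the later range, Cla002744 (1.49) and Cla007573 (1.49) were inside, and Cla012913 (1.52) and Cla016444 (1.53) outside. At the dikaryophase peak, Cla021503 (0.59) and Cla013590 (0.56) were inside and Cla019475 (0.61) and Cla002923 (0.61) outside, the last of these with a rise of 10.64 from a tetrad mean of 0.86. At the level, Cla000141 (8.04) and Cla006694 (8.05) were inside and Cla023145 (7.99) and Cla008516 (7.91) outside, and 66 genes in all met every condition but the level.

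Membership changed with single libraries. When each of the 12 libraries was left out in turn, 33 to 49 genes met the conditions, 17 of the 42 did so every time, and 33 other genes entered at least in one case. The 17 included Cla011778, Cla023393, Cla021161, Cla016062, Cla013506, Cla018447, Cla018454, Cla001735 and Cla019781, and 16 of the 17 were also chosen with library size as the only scaling. Cla018100 was the least stable, kept in 6 of the 12 cases. On the first principal component of the genes tested, mononuclear replicate 2 lay at -43.2 (the other mononuclear libraries at -65.6 and -65.2), dikaryophase replicate 3 at 58.2 (the others at 73.0 and 82.4) and mature replicate 3 at 107 (the others at 126 and 123). Tetrad replicate 3, at -125 against -134 and -136, was likewise shifted towards the mononuclear libraries, by less. Without the first 3 of these libraries 46 genes were chosen, 32 of them among the 42.

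The spread within stages, which the conditions did not use, was wider for the members than for the genes tested at large. The median SD over the 3 libraries of a stage, on the log2 scale, was 0.31 for the members and 0.12 for all genes tested in tetrad libraries, 0.44 and 0.21 in mononuclear, 0.36 and 0.19 in dikaryophase, and 0.36 and 0.20 in mature ones. For the 233 genes that rose and were not held it was 0.56, 0.75, 0.46 and 0.47 in the same order of stages. The members' level on the log2 scale was lower at the tetrad stage, at a median of 7.33 against 10.39 for all genes tested, but not later, at 10.46 against 10.36 (mononuclear), 11.17 against 10.37 (dikaryophase) and 11.11 against 10.41 (mature). No test was made of these spreads. The member with the smallest mean SD, 0.15, was Cla009183, with 298, 275 and 272 normalised reads in the tetrad, 2609, 1970 and 2274 in the mononuclear, 1751, 1645 and 1866 in the dikaryophase and 1322, 1245 and 950 in the mature libraries. Its mononuclear libraries were the highest, and no stage overlapped another. The largest mean SD, 0.88, was that of Cla018420, which had 106 to 307 normalised reads in the later libraries and 17.9, 31.5 and 0 in the tetrad ones. Its rise was 4.02 ± 0.96, and 2.48 without tetrad replicate 3 or 4.99 without tetrad replicate 2.

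Within a stage, many members were low or high in the same library. In mononuclear replicate 2, 30 of the 42 were at their lowest for the stage (28.4% of the genes tested were), and in mononuclear replicate 3, 29 were at their highest (38.9%). In mature replicate 3, 29 were at their lowest (41.5%), and in mature replicate 1, 22 were at their highest (34.9%). In dikaryophase replicate 1, 25 were at their lowest (36.3%), and in dikaryophase replicate 3, 20 were at their highest (31.1%). The tetrad libraries held 12, 12 and 16 of the stage minima, against 31.2%, 32.9% and 34.7% of the genes tested.

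The median deviation of the 42 genes from their stage mean was -0.35 on the log2 scale in mononuclear replicate 2 and 0.28 in mononuclear replicate 3, and 0.24 in mature replicate 1 and -0.27 in mature replicate 3. Over all genes tested it lay between -0.01 and 0.02 in these 4 libraries. Scaled by library size alone, the same medians were -0.33, 0.23, 0.17 and -0.18. Mononuclear replicate 2 and mature replicate 3 had the fewest reads of their stages (58079967 and 55347640), and mononuclear replicate 3 and mature replicate 1 the most (65554998 and 65023182). In the dikaryophase the order was otherwise: replicate 3, with the fewest reads (62663876), had the highest median deviation (0.12), and replicate 1 (62998799 reads) the lowest (-0.18). The part of depth in these deviations was not tested. The 233 genes that rose and were not held deviated the other way in mononuclear replicate 2, at a median of 0.24. In that library 112 of them (48.1%) were at their highest for the stage, against 30.9% of the genes tested. In mature replicate 3 the 233 genes deviated like the members, at -0.24.

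**Figure D5:**
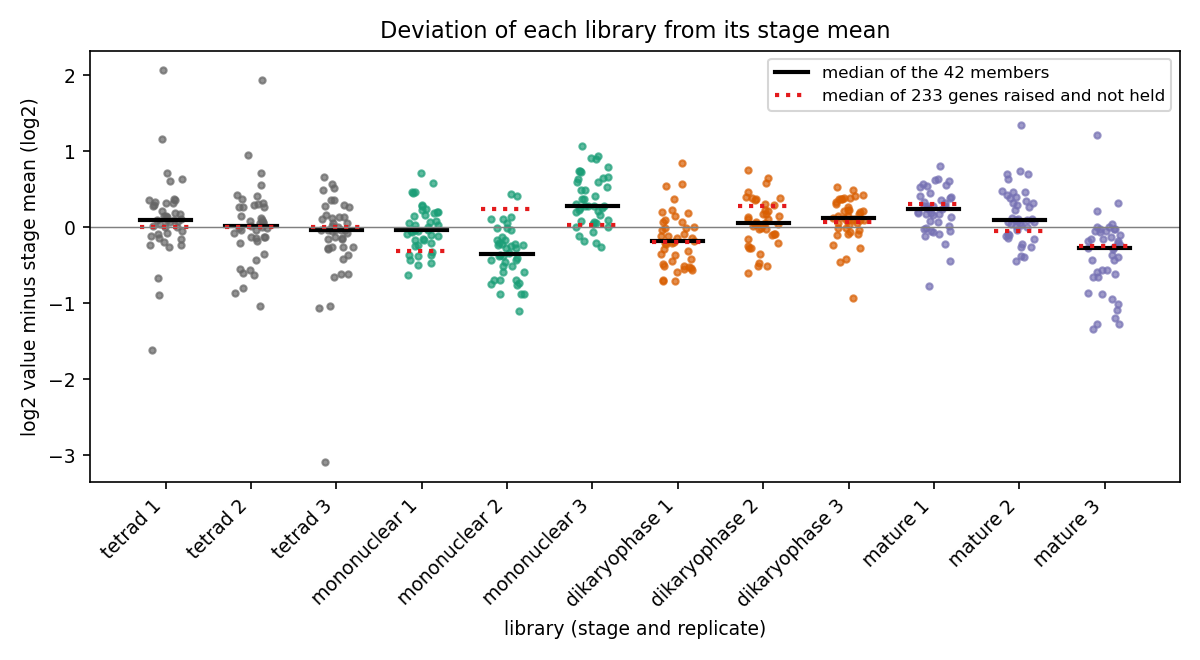
Deviation of each of the 42 members from its stage mean (points, log2) in each library, with the median of the members (solid line) and of the 233 genes that rose and were not held (dotted line). The members' median is lowest in mononuclear replicate 2 (-0.35), where the 233 genes have a median of 0.24, and highest in mononuclear replicate 3 (0.28).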

How the data were processed

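Per the file headers, the deposited table has a gene ID and 12 libraries; the authors' values are on a log2 scale. No aligner, counter, build, annotation or strand setting is given in these sources, so genes with a near-identical or overlapping partner may share reads. Undoing the log2 and its pseudocount of 1 left multiples of the smallest value of the library in 100% of cases (tolerance 0.01 reads), so normalised reads are reads divided by a library factor. Reads were recovered by that step, and CPM computed from them. Groups came from the stage labels, replicate numbers from the titles.

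The members and the lists were chosen with earlier results of these data known. Limma 3.58.1 (R 4.3.3) was fitted to the deposited values of genes reaching 1 CPM in 3 or more libraries, with a mean per stage, a variance trend on the mean and Benjamini-Hochberg adjustment over 17484 genes. The fit was checked on simulated counts. Genes are named by level, rise, flatness, spread and nearness to a threshold, with those called between later stages and Cla018100, Cla021160, Cla004376 and Cla004377 named after their values were seen. Deviations of same-numbered libraries correlated at over 0.1 for every number between the mononuclear stage and the dikaryophase. Between other stages the correlations were not over 0.1 for every number. The labels give no pairing, and whether the numbers pair samples was not settled. Gene lists by product and cell type markers could not be used, since IDs are not paired with names. Changes compare stage means of log2(value + 1). The added 1 lowers the change of genes with few reads, but a tetrad library without reads lowers the tetrad mean and can raise it. In Cla018420 and Cla001735 the rises of 4.02 and 7.27 were larger than their ratios of mean normalised reads, 8.50 and 126, on the log2 scale. Alternatives covered scaling, pseudocount, filter, thresholds, limma-voom on recovered reads, a replicate block and single libraries left out; leaving out 3 libraries together, deviations scaled by library size, and fits of later-stage calls with a block or by limma-voom were added after the data were seen.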

Additional observations from a re-analysis of the deposited data

How the results depend on the processing

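The number of members followed the scaling and the thresholds. It was 27 with library size as the only scaling, where 16 members were lost, 8 of them past the range limit and 5 under the rise. It was 74 with a rise of at least 1.5 and 17 with a rise of at least 3, 21 with a range under 1 and 65 with a range under 2, and 18 when the rise of 2 had to hold between the lowest later and the highest tetrad library. Leaving out single libraries gave 33 to 49. Size factors worked out again and a pseudocount of 0.1 gave the same 42 genes. Quantile normalisation gave 35 genes, 33 of them among the 42. Stage medians gave 39, only 29 of them among the 42, and left out Cla016062, which every leave-out had kept. Levels of 7 and 9 gave 53 and 34, and no limit on a dikaryophase peak 53. Of the 42 members, 37 to 42 were called in each comparison with the tetrad stage over 22 alternatives. The 37 came with a filter of 5 CPM, which 37 members passed. All-gene calls in either direction ran from 754 to 1729 (mononuclear), 1376 to 2732 (dikaryophase) and 1718 to 3852 (mature). The choice of members fixes these contrasts, so nothing is read from the member counts. Without Cla011778 the summed share of reads was 0.0559% (tetrad), 2.92% (mononuclear), 2.67% (dikaryophase) and 1.56% (mature), so that the stage with the largest share turned to the mononuclear one. Most of that remainder was Cla023393, while Cla021161 and the other 39 members had their largest share at the dikaryophase. The rise of the 26 named members kept its direction in all 364 values under other settings, with a lowest of 1.67, and this direction is fixed by the choice of members. With the replicate number as a replicate block, 42 members were called in each of the 3 comparisons with the tetrad stage. Of all genes, 1582 (mononuclear), 2602 (dikaryophase) and 3598 (mature) were then called in either direction. At the dikaryophase against the mononuclear stage 3 were called higher and 0 lower (1118 of all genes in either direction). At maturity 0 and 4 were called against the dikaryophase (919 of all genes) and 7 and 4 against the mononuclear stage (2713). In the fit with this block to mononuclear and dikaryophase libraries alone, 5 were called higher at the dikaryophase (968 of all genes in either direction). Same-numbered libraries of different stages deviated from their stage means with correlations of -0.11 to 0.36 over all genes tested, 6 of 18 pairs were over 0.1, and 4 of 12 libraries correlated best with one of their own number. The 3 pairs between the mononuclear stage and the dikaryophase (0.11, 0.15 and 0.17) were over 0.1. So were mature replicate 3 with mononuclear replicate 3 (0.16) and with dikaryophase replicate 3 (0.36), and mature replicate 2 with dikaryophase replicate 2 (0.103). The labels give no pairing, and these correlations do not settle whether the numbers pair samples. The main fit used no pairing, and the fits with a block are alternatives. Genes with few tetrad reads limit the precision of the largest rises.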

Other observations

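Cla021160 went against most members in mature replicate 3, with 2632, 3301 and 10472 normalised reads in mature replicates 1 to 3, where 29 of the 42 were at their lowest for the stage in replicate 3. Its tetrad libraries had 915, 952 and 861 normalised reads, so that all mature libraries were above them. It was kept as a member in 11 of the 12 cases with a library left out, but not without mononuclear replicate 2, dikaryophase replicate 3 and mature replicate 3 together.

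A pair of members with consecutive ID numbers, Cla004376 and Cla004377, had alike levels in most libraries and parted in mature replicate 3. Cla004376 had 120, 50.8 and 134 normalised reads in the tetrad, 771, 392 and 445 in the mononuclear, 958, 1423 and 441 in the dikaryophase and 1110, 1226 and 311 in the mature libraries. Cla004377 had 152, 64.0 and 101, then 739, 429 and 503, then 1150, 1153 and 746, and 1006, 1091 and 1020 in the same order. Their rises were 2.44 each. Cla021160 and Cla021161 also had consecutive ID numbers, and their levels were unlike, with mature means of 5468 and 156941 normalised reads. The order behind the ID numbers is not known from these sources, and whether reads could be shared within either pair was not tested.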
